A study of Mus musculus with 18 samples.

Results

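The genes described here are 10 of the 13 protein-coding genes of the mouse mitochondrial genome, COX1, COX2, COX3, CYTB, ATP6, ND1, ND2, ND4, ND5 and ND6, out of 27179 genes in the table of normalized counts. They were taken as the rows with these names, and each name was checked by its gene number against the mitochondrial chromosome of the mouse annotation. The list was chosen by someone who already knew results of these same libraries, and which values led to the choice was not recorded, so the differences between groups of these 10 genes are given as a description, without p-values. The table held 15 rows of mitochondrial DNA in all. The other protein-coding rows were ATP8, ND3 and ND4L, and both mitochondrial ribosomal RNAs, mt-Rnr1 and mt-Rnr2, were present. Of the 37 mitochondrial genes in the annotation, the 22 tRNA genes had 0 rows. COX1, COX2 and COX3 stand here for subunits of cytochrome c oxidase and not for the prostaglandin synthases that share the abbreviation.

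RNA was sequenced from primary mesenchymal stem cells (MSCs), the adherent stromal cells grown from bone marrow, of male C57BL6 mice, with 6 libraries in each of 3 groups. Young MSCs came from mice of 6 weeks and old MSCs from mice of 18 to 24 months, and both were kept untreated and separately for 7 days, with 100000 cells in a well. The rejuvenated old group consisted of old MSCs cultured for the same 7 days opposite young MSCs across a Transwell membrane with pores of 0.4 µm, which passes released factors but not cells. A serum content of 20% is named in the sources used here. The study's methods give a lower one for expansion of the cells and name none in their section on RNA sequencing. Old MSCs cultured opposite old MSCs were not analysed here, so the presence of more cells in the well and the age of those cells cannot be told apart. The labels call the 6 libraries of a group biological replicates without naming animals or cultures, and p-values measure the spread between these libraries.

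Mitochondrial DNA is a small circle that is copied into RNA from both strands as long precursors, which carry many genes at a time. The precursors are cut at the tRNAs that lie between the genes, and most of the released messenger RNAs receive a short poly(A) tail. The proteins encoded by mitochondrial DNA are core subunits of the respiratory chain and of the ATP synthase. The chain pumps protons across the inner mitochondrial membrane, and the ATP synthase uses this gradient. All other subunits of the chain and the synthase, and all the enzymes of mitochondrial transcription, come from nuclear genes. ND6 is the only protein-coding gene on its strand, and in human cells its RNA was found to lack a poly(A) tail.

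The libraries held 22936251 to 29559194 reads on genes, and 21697 genes had at least 1 read. The labelled cell type was checked against 12 stromal markers, among them Col1a1, Pdgfra and Ly6a, whose summed normalized counts were 376885 to 404449 in young, 533874 to 562017 in old and 530235 to 570919 in rejuvenated old MSCs. All 12 were detected in every young library, and all but Thy1 in every old and rejuvenated old library. The higher sum in old MSCs came from Cxcl12, with means of 9227 in young and 197374 in old MSCs. Of the 12 markers, 4 were higher in young than in old MSCs (Col1a2, Pdgfra, Ly6a and Thy1) and 8 lower (adjusted p under 0.05, limma). These were 33.3% and 66.7%, beside 41.6% and 44.1% of all genes tested. Mean counts in young and old MSCs were 14051 and 4075 for Pdgfra and 25100.1 and 6135 for Ly6a. Among the 8 lower markers, they were 163 and 7340 for Eng, 928 and 6408 for Vcam1, and 36.2 and 378 for Lepr. Summed counts of 13 macrophage markers, among them Ptprc, Csf1r and Cd68, were 931 to 1047 in young, 16540 to 20590 in old and 16573 to 20168 in rejuvenated old MSCs, and 2 of the 13, Ptprc and Adgre1, were at 0 in all young libraries. All 13 were lower in young than in old MSCs (adjusted p under 0.05, limma), beside 44.1% of all genes tested. Summed counts of 6 endothelial markers were low in all groups, at 14.2 to 140 normalized counts. Of 6 blood stem cell and erythroid markers in the table, only Cd34 passed the filter on low values, with a mean of 7006 normalized counts in young MSCs, where old MSCs had 23.1 and rejuvenated old MSCs 96.3. Kit had a mean of 8.74 in old MSCs and was at 0 in all young libraries, as were Gata1, Hba-a1 and Hbb-bs. A list of 10 genes was written by hand as RNAs without a poly(A) tail. They summed to 2354 to 2542 in young, 9611 to 10807 in old and 9951 to 12707 in rejuvenated old MSCs. Most of this sum was Hist1h1c (means of 1093 in young and 4804 in old MSCs) and Hist1h2bc (1143 and 5099.7). Whether these histone RNAs lacked a tail in these cells was not tested. Rn7sk (89.2 and 29.1) and Rmrp (27.5 and 6.10) were higher in young MSCs (adjusted p under 0.05, limma). These levels differ between young and old MSCs in the same libraries as the mitochondrial transcripts do, and their part in those differences was not tested.

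Copies of mitochondrial DNA inserted in the nuclear genome bear on which of the 10 genes could be counted at all, since a read that matches both places equally has no single origin. The annotated transcripts of the nuclear genome (GENCODE vM21, GRCm38) were therefore searched with the 15 mitochondrial sequences. A row of 7 pseudogenes on the minus strand of chromosome 1, chr1:24611535-24616197, matched the stretch from the end of COX1 to ND4 in the same order. Between the copies of COX2 and ATP6 lay 233 bases, as on mitochondrial DNA. There this interval holds ATP8 except for the 43 bases that ATP8 shares with ATP6. The copies of COX2, ATP6 and COX3 were identical to the mitochondrial genes over 681 of 684, 678 of 681 and 783 of 784 bases, and none of the chromosome 1 copies was a row of the table. A stretch of 60 bases is shown for 5 genes, because these stretches show which transcripts can be told from their nuclear copy by a short read. Each pair is printed 5′ to 3′ on the strand of the gene, with bases that differ within the pair in capitals. COX2 (chrM:7313-7372, plus strand) and its copy Gm28661 (chr1:24615206-24615265, minus strand) were the same at all 60 bases.
COX2: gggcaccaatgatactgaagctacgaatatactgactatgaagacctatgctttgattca
Gm28661: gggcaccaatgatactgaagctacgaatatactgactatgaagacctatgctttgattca
ND3 (chrM:9459-9518, plus strand) differed from Gm28438 (chr1:24613060-24613119, minus strand) by T3C, the only difference in 345 aligned bases, counted from 1 at the first base of the gene, with the mitochondrial base first.
ND3: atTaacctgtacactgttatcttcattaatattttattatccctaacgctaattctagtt
Gm28438: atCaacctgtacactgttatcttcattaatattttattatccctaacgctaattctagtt
COX1 (chrM:6390-6449, plus strand) differed from Gm29216 (chr1:24616129-24616188, minus strand), which covers its last 483 bases, by A1066T alone, counted in the same way.
COX1: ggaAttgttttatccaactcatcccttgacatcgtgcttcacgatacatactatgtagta
Gm29216: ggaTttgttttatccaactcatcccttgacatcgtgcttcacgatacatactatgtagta
CYTB (chrM:14445-14504, plus strand) and its closest copy Gm11410 (chr4:80004289-80004348, plus strand) differed at 7 of these 60 bases and were 92.9% identical over 1142 bases.
CYTB: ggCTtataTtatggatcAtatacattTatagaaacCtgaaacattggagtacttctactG
Gm11410: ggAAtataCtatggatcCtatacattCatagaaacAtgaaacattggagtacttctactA
ND6 (chrM:13711-13770, minus strand) and Gm11408 (chr4:80003555-80003614, minus strand) differed at 9 of these 60 bases and were 93.6% identical over all 519 bases of the gene.
ND6: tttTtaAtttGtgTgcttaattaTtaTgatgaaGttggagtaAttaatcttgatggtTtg
Gm11408: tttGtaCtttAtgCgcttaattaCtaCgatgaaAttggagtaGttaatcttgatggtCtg

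The share of 50-base windows of a gene that occur without change in an annotated nuclear transcript was 100% for COX2, 99.9% for COX3 and 99.5% for ATP6. It was 62.2% for ND4 and 51.1% for COX1, which kept 502 and 731 windows of their own. ND2 and ND5 shared 8.19% and 7.61% of their windows, and ND1, ND6 and CYTB shared 0 of 908, 470 and 1095. Per kilobase of gene, the old libraries had mean normalized counts of 242549 for COX1, 232099 for CYTB, 142265 for ND1, 104000.0 for ND6, 94212 for ND2, 84786 for ND4 and 60591 for ND5. The 3 genes with nearly all windows shared were far lower, at 321 for COX2, 99.5 for COX3 and 89.3 for ATP6. In this order the ranges over the 6 old libraries overlapped between COX1 and CYTB, between ND6 and ND2, between ND2 and ND4, and between COX3 and ATP6. ND1 and ND5 lay apart from their neighbours. How reads with several matches were counted was not given in the sources used here, and the part of the copies in the low counts of COX2, COX3 and ATP6 was not tested. Their values below are those of the reads that were counted and are uncertain as levels of the mitochondrial RNA. The counts of COX1 and ND4, with 51.1% and 62.2% of windows shared, depend on the same handling of reads. The places of these genes in the order per kilobase are therefore uncertain too. ATP8, with 0 to 8 reads per library, shared 0 of its 155 windows with an annotated transcript, although it lies within the interval that the chromosome 1 copies span. Only Gm20594, which is 88.4% identical to mt-Rnr2 over 439 bases, was a nuclear copy with a row of its own, and it had 0 or 1 read per library.

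**Figure D1:**
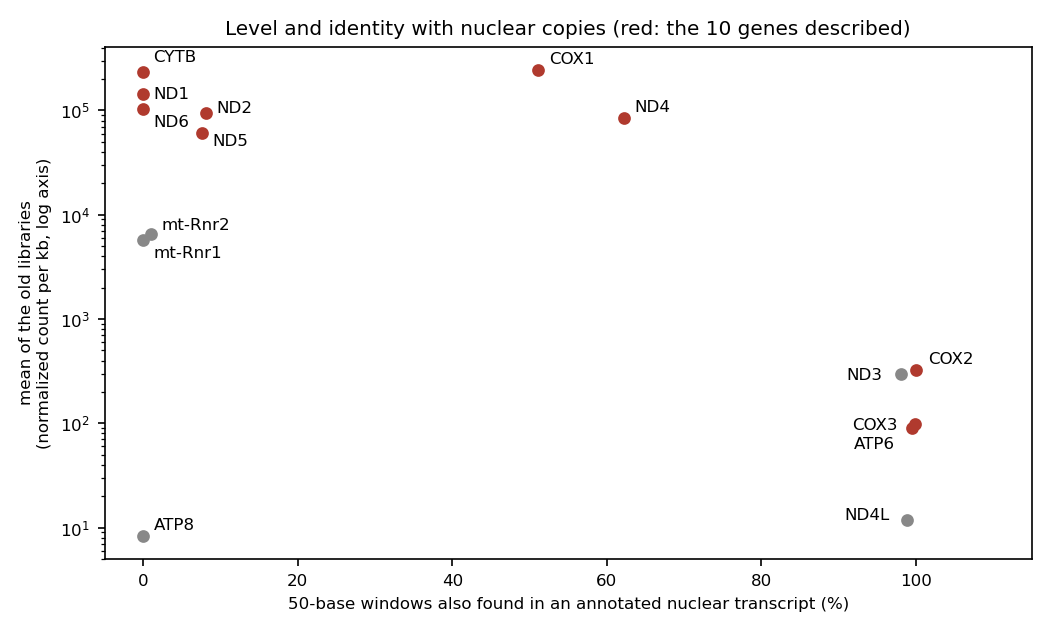
Mean normalized count per kilobase over the 6 old libraries (log axis) against the percentage of 50-base windows of each mitochondrial gene found in an annotated nuclear transcript. COX2, COX3 and ATP6 lie at 99.5% or more and at most 321 counts per kilobase, COX1 and ND4 keep high levels at 51.1% and 62.2%, and ATP8 is low with 0% shared.

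Reads on the 10 genes made up 2.38% to 2.70% of all reads on genes in young MSCs (median 2.51%), 4.06% to 4.53% in old MSCs (median 4.31%) and 4.34% to 5.49% in rejuvenated old MSCs (median 4.78%). All young libraries lay below all others, and the rejuvenated old libraries overlapped the old ones, with 4 of the 6 above every old library. The mean shares were 2.51% ± 0.112, 4.31% ± 0.179 and 4.83% ± 0.412 (SD, n = 6 each). In bulk RNA, fewer cells of a type and less RNA per cell cannot be told apart. COX1 had the highest mean count of all genes in the table and CYTB ranked next, ND1, ND4, ND5, ND2 and ND6 took ranks 6, 10, 12, 16 and 32, and COX2, COX3 and ATP6 took ranks 10031, 11556 and 11899.

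In rejuvenated old against old MSCs, 7 of the 10 genes were called higher (adjusted p under 0.05 over the 14353 genes tested, limma), 0 were called lower, and CYTB, ND2 and ND6 were not called. Of all genes tested, 21.0% were called higher in this comparison. The fitted differences of group means, on the scale log2(normalized count + 1), ran from -0.01 for ND6 to 0.67 for ATP6, with a median of 0.23 against 0.01 over all genes. Over the 7 genes without a nearly full-length identical copy, the median was 0.17, and 0.10 without rejuvenated old replicate 6. All 6 rejuvenated old libraries exceeded all 6 old ones for COX1, COX2, COX3 and ATP6, and 10.4% of all genes tested separated in this way. In young against old MSCs, all 10 were called lower, where 44.1% of all genes were, and 8 did not overlap between the groups, where 38.2% of all genes lay entirely below. Their differences ran from -1.12 for COX1 to -0.36 for ND6, with a median of -0.78 against -0.02 over all genes. In young against rejuvenated old MSCs all 10 were called lower and did not overlap, beside 44.1% and 36.5% of all genes, with a median of -0.96. Each pair of these comparisons shares a group, the old, the young or the rejuvenated old libraries, so they are not independent of each other. All 10 genes passed the filter of a mean of at least 10 normalized counts.

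**Figure D2:**
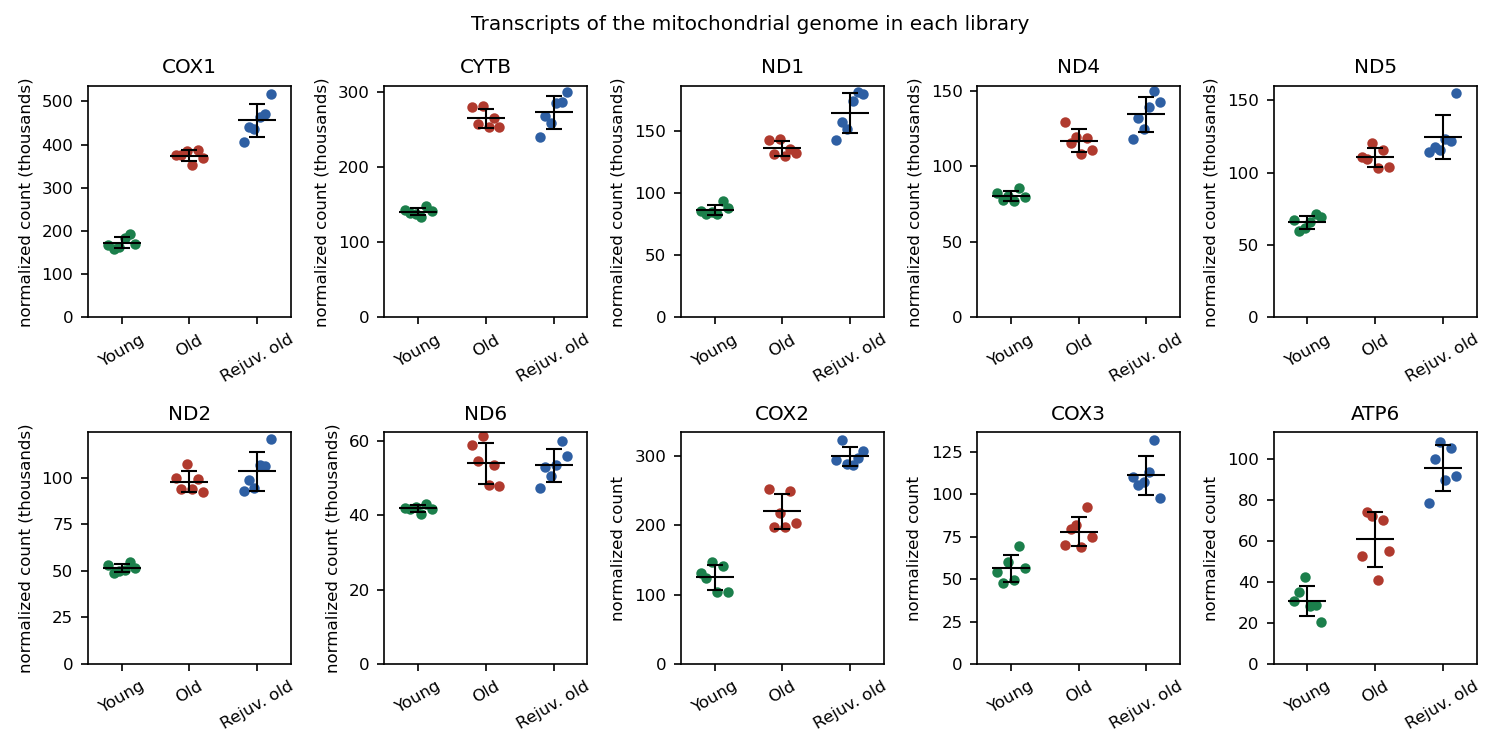
Normalized counts of the 10 mitochondrial genes in each of the 18 libraries (points, in replicate order within a group), with mean and SD as bars; the upper row and ND2 and ND6 are in units of 1000. Young libraries lie lowest for every gene, with overlap with old MSCs for COX3 and ATP6, and rejuvenated old libraries lie above all old ones for COX1, COX2, COX3 and ATP6.

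Complex I, NADH dehydrogenase, is the entry point of electrons from NADH, and 5 of the 10 genes encode its membrane subunits. ND1 (gene number 17716, chrM:2751-3707) encodes the subunit nearest to the quinone site. It had 83520 to 93560 normalized counts in young (median 85304), 130236 to 143938 in old (median 133993) and 143080 to 181468 in rejuvenated old MSCs (median 166223). The lowest rejuvenated old library, replicate 1, lay just inside the range of the old libraries, and the other rejuvenated old libraries lay above it. ND1 was 1.21-fold higher in rejuvenated old than in old MSCs (log2 difference 0.27, SE 0.06) and 1.57-fold lower in young than in old MSCs (log2 difference -0.65, SE 0.06).

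ND2 (gene number 17717, chrM:3914-4951), ND4 (gene number 17719, chrM:10167-11544) and ND5 (gene number 17721, chrM:11742-13565) encode the proton-pumping subunits of the membrane arm. ND2 had 48813 to 54866 normalized counts in young (median 50862), 92181 to 107396 in old (median 96719) and 93084 to 120720 in rejuvenated old MSCs (median 102568). The young libraries were at about the same distance below both other groups, which overlapped. The log2 difference was 0.08 (SE 0.06) for rejuvenated old and -0.93 (SE 0.06) for young against old MSCs, the latter a 1.90-fold lower level.

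ND4 had 76829 to 85350 normalized counts in young (median 79784), 107778 to 129440 in old (median 116894) and 118072 to 149447 in rejuvenated old MSCs (median 135341). Young libraries were again separate, and those of the other groups overlapped. The log2 difference was 0.20 (SE 0.06) for rejuvenated old and -0.54 (SE 0.06) for young against old MSCs, and the latter was -0.25 under quantile normalization, which gives the same value to the same rank in every library.

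ND5 had 59540 to 71493 normalized counts in young (median 66433), 102849 to 120183 in old (median 110191) and 114398 to 154920 in rejuvenated old MSCs (median 119696). Replicate 6 held the highest rejuvenated old value, and the other libraries of its group reached no more than 122948. The log2 difference for rejuvenated old against old MSCs was 0.17 (SE 0.07) with all libraries and 0.10 without replicate 6, and the call as higher was lost in 9 of the 18 fits that left out a library, those without young replicate 1 or 4, old replicate 1, 2, 4 or 6, or rejuvenated old replicate 4, 5 or 6. In young against old MSCs ND5 differed by -0.75 (SE 0.07), and by -0.45 under quantile normalization.

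ND6 (gene number 17722, chrM:13552-14070, minus strand), the subunit encoded on the opposite strand, shares its last 14 bases with ND5 on the other strand. It had 40371 to 43117 normalized counts in young (median 41864), 47775 to 61247 in old (median 53958) and 47272 to 59988 in rejuvenated old MSCs (median 53317). The ranges of the old and rejuvenated old libraries nearly coincided, and the young libraries lay below both. The log2 difference was -0.01 (SE 0.06) for rejuvenated old and -0.36 (SE 0.06) for young against old MSCs, the smallest of the 10 in size in both comparisons. Under quantile normalization the difference between young and old MSCs was -0.17. The library kit marks the strand, but whether the counting used it is not given in the sources used here, so reads of ND6 and of RNA from the opposite strand cannot be told apart.

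Complex III passes electrons from quinol to cytochrome c, and CYTB (gene number 17711, chrM:14145-15288), cytochrome b, is its single mitochondrial subunit. CYTB had 134313 to 147855 normalized counts in young (median 140667), 254180 to 281213 in old (median 261747) and 240676 to 300060 in rejuvenated old MSCs (median 276564). Rejuvenated old libraries lay on both sides of the old ones, and no young library came near either group. The log2 difference was 0.04 (SE 0.05) for rejuvenated old and -0.91 (SE 0.05) for young against old MSCs, a 1.88-fold lower level in young MSCs.

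Complex IV, cytochrome c oxidase, reduces oxygen, and COX1 (gene number 17708, chrM:5328-6872) is its catalytic subunit. COX1 had 157536 to 192601 normalized counts in young (median 169820), 352899 to 388671 in old (median 376508) and 406467 to 517784 in rejuvenated old MSCs (median 453546). The 3 groups did not overlap, and COX1 was the only one of the 7 abundant genes for which this held. It was 1.21-fold higher in rejuvenated old (log2 difference 0.28, SE 0.06) and 2.17-fold lower in young than in old MSCs (log2 difference -1.12, SE 0.06). Under quantile normalization the log2 difference of COX1 between rejuvenated old and old MSCs was 0, and its call was lost. That method gives a gene with the same rank in every library a difference of 0 whatever its counts. For COX1, at the top rank by mean count, this 0 therefore cannot show whether its level differed.

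COX2 (gene number 17709, chrM:7013-7696) encodes the subunit that receives electrons from cytochrome c, and COX3 (gene number 17710, chrM:8607-9390) a further core subunit. COX2 had 104 to 146 normalized counts in young (median 128), 198 to 253 in old (median 210.3) and 287 to 323 in rejuvenated old MSCs (median 295), from 101 to 342 reads per library. The 3 groups did not overlap, with log2 differences of 0.45 (SE 0.09) for rejuvenated old and -0.81 (SE 0.09) for young against old MSCs. COX3 had 47.8 to 69.3 normalized counts in young (median 55.5), 69.1 to 92.3 in old (median 77.4) and 98.1 to 132 in rejuvenated old MSCs (median 109). The highest young library lay just above the lowest old library, and all rejuvenated old libraries lay higher. The log2 difference was 0.51 (SE 0.11) for rejuvenated old and -0.47 (SE 0.11) for young against old MSCs.

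Complex V is the ATP synthase, and ATP6 (gene number 17705, chrM:7927-8607) forms the proton channel with the ring of c subunits. ATP6 had 20.6 to 42.5 normalized counts in young (median 29.6), 40.9 to 73.8 in old (median 62.5) and 78.3 to 108 in rejuvenated old MSCs (median 95.8), from 20 to 114 reads per library. A single pair of ranges overlapped, that of young and old MSCs. The log2 difference was 0.67 (SE 0.16) for rejuvenated old and -0.95 (SE 0.16) for young against old MSCs. ATP6 shares its first 43 bases with ATP8 and its last base with COX3, and like COX2 and COX3 it is given with the limit set by its nuclear copy.

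**Figure D3:**
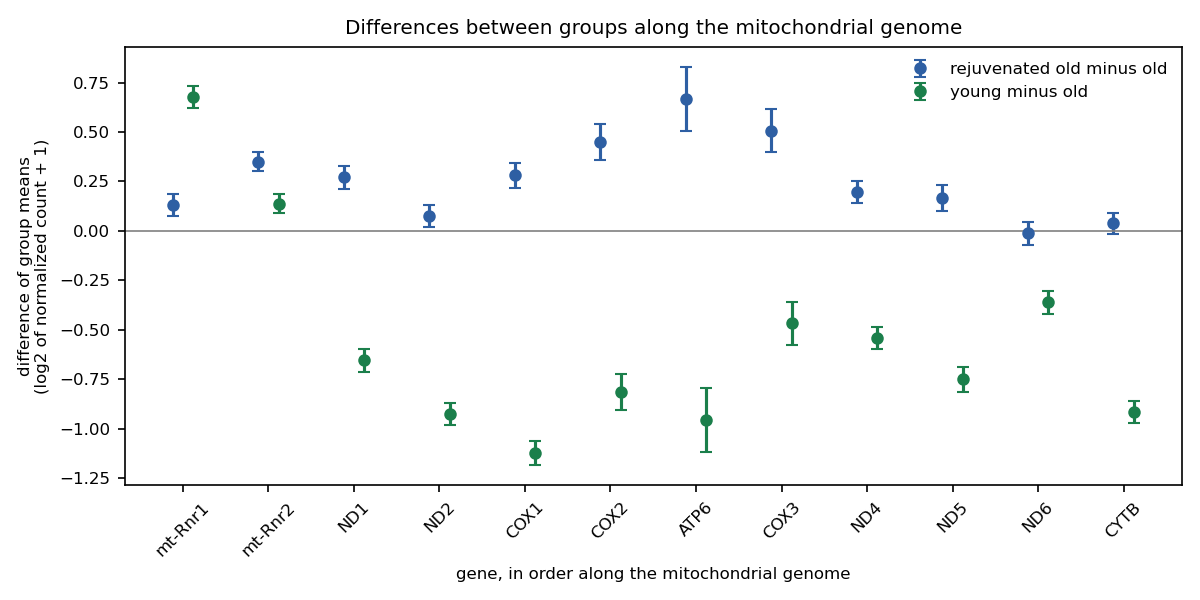
Difference of group means on the scale log2(normalized count + 1), with its SE, for both mitochondrial rRNAs and the 10 genes in their order on mitochondrial DNA. In young minus old MSCs all 10 genes are below 0 and both rRNAs are above 0, and in rejuvenated old minus old MSCs the values run from -0.01 (ND6) to 0.67 (ATP6).

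The mitochondrial genes left out of the list are described next, from the same libraries. Whether their values played a part in the choice of the list was not recorded. Both rRNAs, the RNAs of the mitochondrial ribosome, lie at the start of the same strand as most of the 10 genes. mt-Rnr1 had 8476 to 9160 normalized counts in young (median 8808), 5388 to 5701 in old (median 5509) and 5147 to 7535 in rejuvenated old MSCs (median 6038). All young libraries lay above all others, opposite to the order of the 10 genes. mt-Rnr1 was higher in young than in old MSCs (log2 difference 0.68, SE 0.06, adjusted p = 9.41e-11, limma), and its difference between rejuvenated old and old MSCs did not pass the test (0.13, SE 0.06, adjusted p = 0.0604, limma). mt-Rnr2 had 10973 to 11823 normalized counts in young (median 11426), 9699 to 11125 in old (median 10343) and 11529 to 14636 in rejuvenated old MSCs (median 13364). The rejuvenated old libraries all exceeded the old ones. mt-Rnr2 rose in rejuvenated old MSCs (log2 difference 0.35, SE 0.05, adjusted p = 3.51e-06, limma) and was higher in young than in old MSCs (0.14, SE 0.05, adjusted p = 0.0107, limma). The kit selects RNA by its poly(A) tail, and rRNA reads were 0.0562% to 0.0819% of the reads of a library.

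ND3, a small subunit of complex I, had 0 to 4 reads per library in young, 57 to 190 in old and 110 to 170 in rejuvenated old MSCs. All young libraries were thus far below the others. On the scale log2(normalized count + 1), ND3 was lower in young than in old MSCs by a difference of -5.50 (SE 0.33, adjusted p = 2.56e-13, limma), and between rejuvenated old and old MSCs it differed by 0.42 (SE 0.33, adjusted p = 0.323, limma). ND3 lies between COX3 and ND4L on the same strand, shares 98.0% of its 50-base windows with its chromosome 1 copy and keeps 6 windows of its own. The limit given for COX2 thus holds over nearly all of ND3, and T3C is its only difference from the aligned copy. Whether the young and old mice carried the same base there was not tested. COX3 and ND4, nearby on the same strand, differed by -0.47 and -0.54 between young and old MSCs. The difference of ND3 is therefore uncertain as one of RNA level. ND4L, another subunit of complex I, had 0 to 3 reads in young, 0 to 6 in old and 5 to 7 in rejuvenated old MSCs and was not tested, and neither was ATP8, a small subunit of the ATP synthase, with 0 to 2, 0 to 4 and 0 to 8 reads.

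Since most of these RNAs are cut from shared precursors, the makeup of the mitochondrial transcripts was also described as log2 ratios to CYTB within each library, which do not depend on how libraries are scaled. The ratio of COX1 to CYTB was 0.18 to 0.45 in young, 0.43 to 0.55 in old and 0.70 to 0.79 in rejuvenated old MSCs. All rejuvenated old libraries had a higher ratio than all old libraries, and the young and old ranges overlapped slightly. The ratio of ND1 to CYTB was -0.75 to -0.66 in young, -0.97 to -0.94 in old and -0.77 to -0.66 in rejuvenated old MSCs. Young and rejuvenated old libraries covered nearly the same range here, above all old libraries. The ratio of ND4 to CYTB was -0.84 to -0.78 in young, -1.24 to -1.11 in old and -1.07 to -0.94 in rejuvenated old MSCs, with the rejuvenated old group between the others and no overlap. The ratio of ND6 to CYTB was -1.78 to -1.71 in young, -2.41 to -2.20 in old and -2.42 to -2.26 in rejuvenated old MSCs. Old and rejuvenated old libraries overlapped almost fully for ND6. ND2 kept nearly the same ratio to CYTB in all groups, with means of -1.45 ± 0.03, -1.44 ± 0.03 and -1.40 ± 0.05 (SD, n = 6 each), and ND5 had means of -1.10 ± 0.08, -1.27 ± 0.05 and -1.14 ± 0.11 (SD, n = 6 each). For mt-Rnr1 the ratio was -4.05 to -3.91 in young, -5.66 to -5.51 in old and -5.63 to -5.25 in rejuvenated old MSCs, so that the rRNA was higher relative to CYTB in every young library. As shares of the reads on the 10 genes, COX1 took 27.0% ± 1.17 in young MSCs, 32.4% ± 0.804 in old MSCs and 34.8% ± 0.438 after co-culture, and ND6 took 6.55% ± 0.246, 4.66% ± 0.291 and 4.08% ± 0.186 (SD, n = 6 each).

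**Figure D4:**
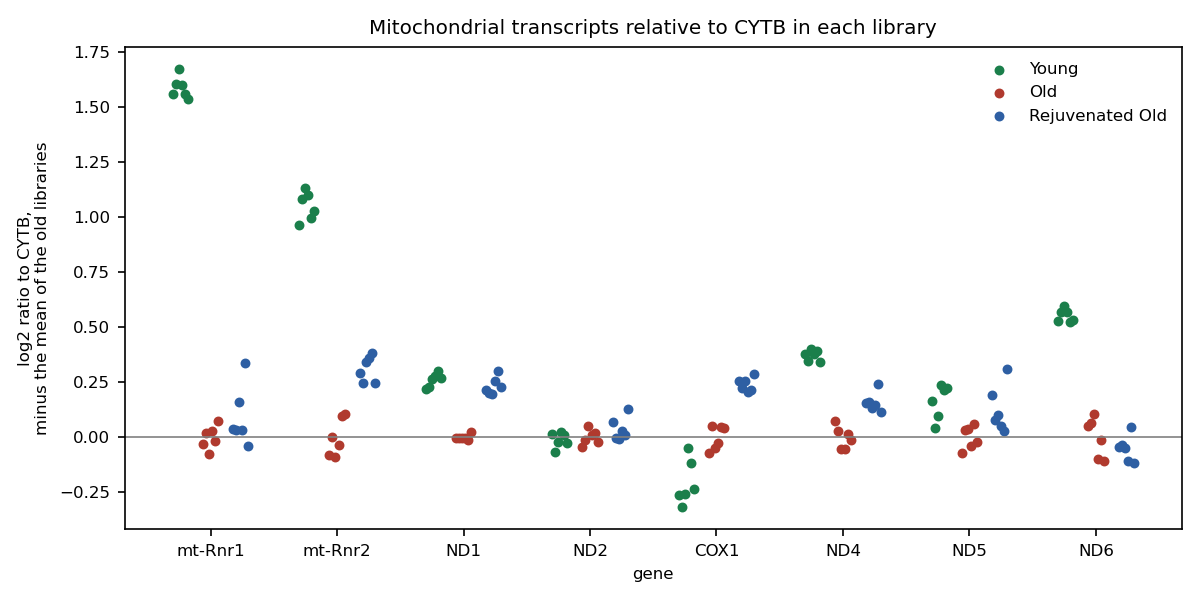
Log2 ratio of 8 mitochondrial RNAs to CYTB in each library, minus the mean of the old libraries, by group. Young libraries stand above the old ones for both rRNAs, ND1, ND4 and ND6 and mostly below them for COX1, while rejuvenated old libraries stand above the old ones for mt-Rnr2, ND1, COX1 and ND4.

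Within groups the 7 abundant genes varied together. Over deviations from the group means in the 18 libraries, which share their depth and scaling factor for all genes, the 21 pairs had Pearson r of 0.51 to 0.96 with a median of 0.78. Averaged over the 7 genes, rejuvenated old replicate 1 lay lowest in its group, at -0.16 on the log2 scale, and replicate 6 highest, at 0.17. The deviations of old libraries ran from -0.09 to 0.10 and those of young libraries from -0.07 to 0.10. Over the 18 libraries, the genes whose log2 values followed the mean of the 10 members most closely were Wipi1 (r = 0.991), Scara3 (r = 0.989), Ppp1r3c (r = 0.988), Ackr4 (r = 0.987) and Ginm1 (r = 0.987). Such values were common, with 967 of 14340 genes above 0.95.

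Nuclear genes that copy, transcribe and package mitochondrial DNA were tested as a list. Of the 26, 17 were higher in young than in old MSCs and 5 lower, where 41.6% and 44.1% of all genes were, with a median log2 difference of 0.40. The macrophage marker sums given above differed between the same libraries, and their part was not tested. Twnk, the replicative helicase, was higher in young MSCs, with 1286 to 1390 normalized counts against 764 to 863 in old MSCs (log2 difference 0.70, SE 0.04, adjusted p = 5.03e-13, limma). Tfam, the packaging and initiation factor, was also higher in young MSCs (0.59, SE 0.04, adjusted p = 1.52e-12, limma), as was Polg, the mitochondrial DNA polymerase (0.51, SE 0.06, adjusted p = 1.79e-08, limma). Polrmt, the mitochondrial RNA polymerase, was lower in young MSCs (-0.25, SE 0.05, adjusted p = 5.17e-05, limma). The largest differences in size of the list were those of Slc25a33, a pyrimidine nucleotide carrier, at 1.44 (SE 0.09, adjusted p = 6.51e-13, limma), and Mterf4, which acts in assembly of the mitochondrial ribosome, at -1.37 (SE 0.08, adjusted p = 5.92e-14, limma).

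In rejuvenated old against old MSCs, 6 of the 26 genes rose and 1 fell, where 21.0% and 20.6% of all genes did, and the median was 0.02. Tfb1m, the methyltransferase that modifies the small rRNA, rose from 78.8 to 116 normalized counts in old to 109 to 153 in rejuvenated old MSCs (log2 difference 0.37, SE 0.10, adjusted p = 0.00566, limma), with a small overlap of the ranges. Mgme1, an exonuclease of mitochondrial DNA maintenance, rose by 0.32 (SE 0.05, adjusted p = 4.18e-05, limma) and Tfam by 0.20 (SE 0.04, adjusted p = 0.000335, limma). Values for Polrmt (-0.05, adjusted p = 0.455, limma), Twnk (-0.03, adjusted p = 0.655, limma) and Polg (-0.09, adjusted p = 0.210, limma) did not pass the test.

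Of 22 tested genes that process, tail and degrade mitochondrial RNA, 6 rose and 4 fell in rejuvenated old MSCs (27.3% and 18.2%, beside 21.0% and 20.6% of all genes), with a median log2 difference of 0.02. Between young and old MSCs, 8 were higher in the young and 7 lower (36.4% and 31.8%, beside 41.6% and 44.1% of all genes), with a median of 0.03. Lrpprc and Slirp encode a complex that keeps mitochondrial mRNAs stable. Lrpprc fell in rejuvenated old MSCs, from 1899 to 2021 normalized counts in old to 1680 to 1833 (log2 difference -0.15, SE 0.03, adjusted p = 0.000845, limma), while Slirp rose (0.19, SE 0.06, adjusted p = 0.0184, limma). Mtpap, the mitochondrial poly(A) polymerase, rose by 0.20 (SE 0.04, adjusted p = 0.000931, limma) and was also higher in young than in old MSCs (0.17, SE 0.04, adjusted p = 0.00109, limma). Fastkd1, of a family of mitochondrial RNA-binding proteins, had the largest difference in rejuvenated old MSCs, at 0.24 (SE 0.07, adjusted p = 0.00954, limma). In young against old MSCs the largest were those of Hsd17b10, a subunit of the enzyme that cuts the 5′ ends of tRNAs, at 0.90 (SE 0.04, adjusted p = 6.90e-15, limma), and Ptcd3, a protein of the mitochondrial ribosome, at 0.56 (SE 0.04, adjusted p = 3.63e-12, limma).

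Of 12 mitochondrial translation factors, 2 rose and 1 fell in rejuvenated old MSCs (16.7% and 8.33%, beside 21.0% and 20.6% of all genes). Comparing young with old MSCs, 8 were higher and 3 lower (66.7% and 25%, beside 41.6% and 44.1%). Mtrf1, a release factor, rose by 0.21 (SE 0.07, adjusted p = 0.0166, limma) and Taco1, a translational activator of COX1, fell by 0.24 (SE 0.09, adjusted p = 0.0434, limma) on the log2 scale in rejuvenated old MSCs. Mtrf1 was higher in young MSCs by 1.03 (SE 0.07, adjusted p = 1.53e-12, limma), and Tsfm, an elongation factor, was lower, at -0.86 (SE 0.06, adjusted p = 1.75e-12, limma).

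The nuclear partner subunits of the same complexes were compared last. Of 77 tested subunits of complexes I to V, 25 rose and 5 fell in rejuvenated old against old MSCs (32.5% and 6.49%, beside 21.0% and 20.6% of all genes), with a median log2 difference of 0.08. Against old MSCs, young MSCs had 39 higher and 28 lower (50.6% and 36.4%, beside 41.6% and 44.1%), with a median of 0.14. The same shares of all genes hold as background for each complex. Complex I had 9 higher and 1 lower of 36 in rejuvenated old MSCs, complex III 2 and 1 of 8, complex IV 6 and 2 of 14, and complex V 7 and 1 of 16. Complex II, which has no mitochondrially encoded subunit, had 1 higher and 0 lower of 3. In young against old MSCs the counts were 21 higher and 12 lower for complex I, 0 and 2 for complex II, 4 and 3 for complex III, 6 and 6 for complex IV, and 8 and 5 for complex V.

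The largest differences were in alternative subunits of complex IV. Cox4i2, the form of subunit 4 known for its induction at low oxygen, had 2.89 to 9.998 normalized counts in old and 96.1 to 209.5 in rejuvenated old MSCs (log2 difference 4.22, SE 0.27, adjusted p = 4.15e-11, limma), and 3.26 to 10.1 in young MSCs. Its counterpart Cox4i1 had 11816 to 13843 in old and 11805 to 15164 in rejuvenated old MSCs. Cox7a1, the form of subunit 7a of heart and muscle, rose from 12.8 to 27.9 normalized counts in old to 77.1 to 151 in rejuvenated old MSCs (2.46, SE 0.25, adjusted p = 5.13e-08, limma). Cox6a2, another muscle form, had 83.1 to 128 normalized counts in young and 0.962 to 5.38 in old MSCs (5.19, SE 0.39, adjusted p = 1.86e-11, limma), and Cox6b2, a form of testis, was lower in young MSCs (-3.10, SE 0.26, adjusted p = 1.38e-10, limma). These forms were low next to the mitochondrial subunit COX1, and the levels of Cox4i2 in young MSCs overlapped those in old MSCs.

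In the other complexes the differences were smaller. In rejuvenated old MSCs the largest were Ndufv3 (0.32, SE 0.05, adjusted p = 1.70e-05, limma) and Ndufa2 (0.22, SE 0.07, adjusted p = 0.0210, limma) of complex I, Sdhc (0.11, SE 0.04, adjusted p = 0.0243, limma) of complex II, Uqcrb (0.17, SE 0.05, adjusted p = 0.0138, limma) and Uqcrc2 (0.14, SE 0.03, adjusted p = 0.000753, limma) of complex III, and Atp5g2 (0.26, SE 0.04, adjusted p = 3.19e-05, limma) and Atp5e (0.20) of complex V. In young against old MSCs Ndufs7 of complex I was at 1.24, and the signs differed within complex III, with Uqcrc2 at 1.03 and Uqcrb at -0.97. Sdhc and Sdha of complex II were at -0.89 and -0.87, and Atp5b and Atp5o of complex V at -0.73 and -0.52, all with an adjusted p under 0.05.

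**Figure D5:**
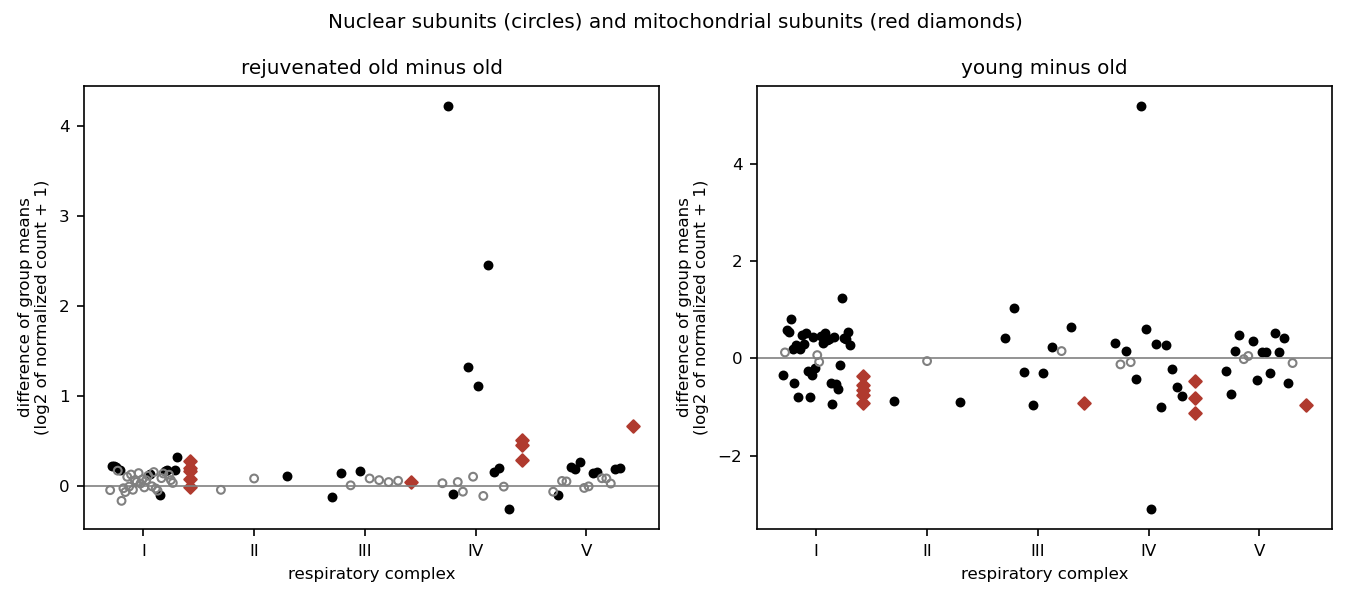
Difference of group means on the scale log2(normalized count + 1) for nuclear subunits (filled circles, adjusted p under 0.05; open circles, not called) and mitochondrial subunits (red diamonds) of each respiratory complex, in rejuvenated old minus old (left) and young minus old MSCs (right). In young minus old MSCs the 10 diamonds are all below 0 while nuclear subunits of complexes I, III, IV and V lie on both sides, and Cox4i2 stands highest on the left at 4.22.

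Of 8 regulators of mitochondrial biogenesis, 2 rose and 2 fell in rejuvenated old MSCs (25% of the list each, beside 21.0% and 20.6% of all genes). Young MSCs had 4 higher and 3 lower than old MSCs (50% and 37.5%, beside 41.6% and 44.1%). Ppargc1a, which encodes the coactivator PGC-1alpha, had 56.8 to 63.8 normalized counts in young against 1.00 to 4.81 in old MSCs (log2 difference 4.30, SE 0.40, adjusted p = 9.10e-10, limma), and its difference between rejuvenated old and old MSCs did not pass the test (-0.47, SE 0.40, adjusted p = 0.377, limma). Ppargc1b, its relative, fell from 13.6 to 26.6 normalized counts in old to 4.83 to 13.2 in rejuvenated old MSCs (-0.98, SE 0.26, adjusted p = 0.00388, limma). Gabpa, a subunit of nuclear respiratory factor 2, differed by -0.16 (SE 0.06, adjusted p = 0.0316, limma) in rejuvenated old MSCs, and Esrra, an estrogen-related receptor, by -1.71 (SE 0.04, adjusted p = 1.20e-20, limma) in young against old MSCs. Of 7 mitophagy receptors and kinases, which mark mitochondria for removal, 4 rose and 2 fell in rejuvenated old MSCs. These were 57.1% and 28.6% of the list, beside 21.0% and 20.6% of all genes. The same numbers were higher and lower in young against old MSCs, beside 41.6% and 44.1% of all genes. Bnip3, a mitophagy receptor, rose from 895 to 1019.6 normalized counts in old to 2125 to 3174 in rejuvenated old MSCs (1.35, SE 0.06, adjusted p = 2.62e-13, limma) and was also higher in young than in old MSCs (1.88, SE 0.06, adjusted p = 7.50e-18, limma). Bcl2l13, another receptor, fell by 0.19 (SE 0.04, adjusted p = 0.000405, limma) in rejuvenated old MSCs.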

How the data were processed

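Libraries were prepared with a stranded mRNA kit, and per the labels and the study's methods the authors used HISAT2 for alignment (mm10), StringTie and featureCounts for counting and DESeq2 for normalization. Versions, annotation, strand setting and the handling of reads with several matches are not given in the sources used here. Each deposited value is a signal, a read count over the size factor of its library, without pooling of replicates. Whole reads were recovered by dividing by the size of 1 read, and 100% of the values were whole within 0.01 read (largest departure 5.26e-05). Replicate pairs differed by a chi-square per degree of freedom of 2.60 to 23.7, above sampling noise.

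The test was limma 3.58.1 (R 4.3.3) on log2(value + 1), with a mean per group over all 18 libraries, a prior variance that follows the mean and Benjamini-Hochberg adjustment. It covered 14353 genes, those whose mean was 10 or more. This scale understates the differences of low genes. Scripts were tested on simulated counts. Positions come from RefSeq and GENCODE vM21 annotations of GRCm38, the build mm10. Mitochondrial transcripts were searched against all other GENCODE transcripts with blastn 2.17.0, keeping matches of at least 100 bases and 85% identity, and the windows were 50 and 100 bases long. No genome sequence was used here.

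The members and all gene lists were chosen with earlier results of these data known. The lists were written by hand from general knowledge. They cover mitochondrial DNA replication and transcription, RNA processing, translation factors, subunits of complexes I to V, biogenesis, mitophagy, and stromal, macrophage, endothelial, blood and poly(A)-free RNA markers. Named are all rows of mitochondrial DNA and nuclear copies of it in the table, 9 mitochondrial regulators, the 2 genes with the largest difference called per pathway list and comparison, and the 5 most like the members. Of the genes this rule names, 2 are not reported here. Cox4i1 was added after its values were seen.

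Alternatives were a pseudocount of 0.5 or 10, other filters on low values and other scalings, a replicate block, fitting only the groups compared, a prior variance common to all genes, edgeR 4.0.16 and DESeq2 1.42.0 on the recovered reads, an adjusted p under 0.01 and leaving out each library. The median over 7 members without COX2, ATP6 and COX3 was added after seeing the data.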

Additional observations from a re-analysis of the deposited data

Results flagged for a closer look

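ND5 in rejuvenated old replicate 6 stood apart from the rest of its group, with a normalized count of 154920, while the other libraries had 114398 to 122948. Its gap to the nearest library was 0.789 of the range of the group, above the critical value of 0.625 for 6 samples. It was the only such library among 33 groups of 6 values for the mitochondrial genes, where chance gives about 1 in 20.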

How the results depend on the processing

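Of 500 alternative values, 490 kept their direction and stayed within the spread or within 1.5 times the count, 10 moved, and 0 reversed. The number of members called ran from 6 to 7 in rejuvenated old against old MSCs and was 10 in both other comparisons under every alternative, and the median member difference in rejuvenated old against old MSCs ran from 0.20 to 0.27. In young against old MSCs, the medians of -0.78 over the 10 members and -0.75 over 7 became -0.59 and -0.49 under quantile normalization. In young against rejuvenated old MSCs, those of -0.96 and -0.92 became -0.81 and -0.69, and -0.87 and -0.83 when scaled to the same total. The median over 7 in rejuvenated old against old MSCs was 0.10 without rejuvenated old replicate 6, against 0.17. In young against rejuvenated old MSCs, quantile normalization gave -0.45 for ND4, against -0.74, and -0.19 for ND6, against -0.35. The members' share was 2.63% in young and 4.51% in old MSCs as a share of normalized counts without the 10 most abundant other genes. At an adjusted p under 0.01, 15 nuclear respiratory subunits were called in rejuvenated old against old MSCs in place of 30, and leaving out single libraries gave 22 to 36. By Spearman rho, 2 of the 5 genes most like the members were the same. Replicate numbers did not pair the libraries. Same-numbered libraries had correlations of deviations from -0.15 to 0.07 over 18 pairs, and 0 libraries correlated best with their own number. With a replicate block, 6 members were called in rejuvenated old against old MSCs (ND5 was lost), with the same median of 0.23, and 10 in each other comparison. The counts of COX2, COX3 and ATP6, at 20 to 342 reads per library, are limited more by depth than those of the other members.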
